A study of Mus musculus with 48 samples.

Results

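The genes described here are 32 genes of B lymphocyte development. They were taken by symbol from a count table of 32544 gene rows, all 32 were found, and all passed the filter on low counts. RNA-seq was made from the tibial metaphysis, the flared end of the shin bone with its trabecular bone and the marrow in its spaces, of male mice aged 19 weeks. Animals came from 8 inbred strains, of which CAST/EiJ, PWK/PhJ and WSB/EiJ are wild-derived and 129S1/SvImJ, A/J, C57BL/6J, NOD/ShiLtJ and NZO/HlLtJ are classical laboratory strains. A cast held the left hindlimb of each mouse for 3 weeks (immobilized limb), and the right limb of that mouse carried no cast (control limb). The 48 libraries form 16 groups of 3 by strain and limb, with 3 mice per strain. No transgene or induced mutation is named for any group. Every immobilized limb was a left limb, so the cast and the side of the body cannot be told apart.

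Depth ranged from 5253408 to 14744056 counts, with a median of 7593532, in 46 libraries. A/J control replicates 2 and 5, with 2335 and 50 counts, were left out, so A/J has 1 control library and 1 pair of limbs, and its limb effect is assumed to vary like that of the other strains. Of the remainder, 22 were control and 24 immobilized libraries, and 22 mice had both limbs. The labels name the tissue as metaphysis and do not mention marrow. B lineage RNA was nevertheless present in every library: Cd79a, a signalling chain of the B cell receptor and a defining marker of the lineage, lay between 13.9 and 129.9 CPM (counts per 1000000 after TMM scaling) in control limbs, with a median of 48.1, and between 12.8 and 114 CPM in immobilized limbs. NZO/HlLtJ control replicate 4 stood apart from the rest, with the lowest value of the erythroid, neutrophil and B progenitor lists among control libraries, and results that rest on it are given with and without it. Reads of all strains were assigned on mm10, which derives from C57BL/6J, and the part this plays in strain differences was not tested.

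B lymphocytes arise in the bone marrow from lymphoid progenitors. The transcription factors E2A (Tcf3), Ebf1, Foxo1 and Pax5 commit cells to the lineage, interleukin 7 keeps the early cells growing, and the recombinase Rag1/Rag2 cuts antibody genes, with terminal transferase (Dntt) adding bases at the joints. A rearranged heavy chain first pairs with a surrogate light chain (Vpreb1, Vpreb2 and Igll1) in the pre-B cell receptor. Cells that pass this step carry IgM and later IgD, and gain the surface proteins of mature B cells, which also return to marrow from the blood. The 32 genes were read as 4 lists: 8 of the progenitor stage (Rag1, Rag2, Dntt, Il7r, Vpreb1, Vpreb2, Vpreb3, Igll1), 12 used through most of the lineage (pan-B: Pax5, Ebf1, Ikzf3, Cd79a, Cd79b, Cd22, Cd72, Blnk, Blk, Fcrla, Pou2af1, Ighm), 4 of the mature stage (Ms4a1, Cr2, Fcer2a, Ighd) and 8 shared with other blood cells (Tcf3, Foxo1, Bach2, Bcl11a, Cd24a, Cd37, Ly6d, Spib). In bulk tissue, fewer cells of a type and less RNA per cell cannot be told apart.

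Promoter sequences are shown for 4 members, as examples of windows that hold a motif of an early B cell factor in genes the results name, and they were chosen after their values were seen. Each is the 250 bases before the RefSeq start site (GRCm38.p6), written 5′ to 3′ on the gene's strand, with the motif in capitals. Rag1, Igll1 and Fcrla hold the E-box CAGGTG, a sequence bound by E2A, which Igll1 carries as its reverse complement CACCTG. Vpreb3 holds the octamer ATTTGCAT, bound by Oct factors with the coactivator encoded by Pou2af1.
Rag1, chr2:101649533-101649782, minus strand, motif 135 bases before the start: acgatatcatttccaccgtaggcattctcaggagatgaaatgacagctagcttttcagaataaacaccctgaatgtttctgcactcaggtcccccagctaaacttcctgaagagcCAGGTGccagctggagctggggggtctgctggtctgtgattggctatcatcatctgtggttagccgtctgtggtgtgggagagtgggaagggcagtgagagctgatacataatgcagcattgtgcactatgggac
Igll1, chr16:16863986-16864235, minus strand, motif 8 bases before the start: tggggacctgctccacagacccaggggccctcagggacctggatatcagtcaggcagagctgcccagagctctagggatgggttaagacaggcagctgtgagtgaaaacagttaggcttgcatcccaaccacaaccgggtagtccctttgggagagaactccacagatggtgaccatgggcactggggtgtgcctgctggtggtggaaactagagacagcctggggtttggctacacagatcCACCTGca
Fcrla, chr1:170927584-170927833, minus strand, motif 69 bases before the start: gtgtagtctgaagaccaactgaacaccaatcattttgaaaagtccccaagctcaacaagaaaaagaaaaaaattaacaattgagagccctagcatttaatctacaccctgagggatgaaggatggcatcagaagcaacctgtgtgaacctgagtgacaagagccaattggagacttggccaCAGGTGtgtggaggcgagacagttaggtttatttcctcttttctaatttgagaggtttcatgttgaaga
Vpreb3, chr10:75948050-75948299, plus strand, motif 45 bases before the start: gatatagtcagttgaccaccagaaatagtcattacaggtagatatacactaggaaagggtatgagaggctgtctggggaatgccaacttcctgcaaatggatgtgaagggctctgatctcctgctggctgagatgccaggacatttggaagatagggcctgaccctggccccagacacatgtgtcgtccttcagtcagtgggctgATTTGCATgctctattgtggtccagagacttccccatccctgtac

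RefSeq windows matched 24 of the 32 members, with 27 promoters in all, and both strands were searched. CAGGTG lay in 11 of the 27 (40.7%) against 17.2% of 32851 promoters of the same length. The octamer lay in 2 (Blnk and Vpreb3), or 7.41% against 1.60%, and the EBF1 sequence (TCCC, any 2 bases, then GGGA) in 2 (Cd22 and Foxo1), or 7.41% against 0.779%. The Ikaros sequence TGGGAA lay in 8 (29.6% against 21.6%) and the PU.1 core GAGGAA in 8 (29.6% against 23.3%). A match describes letters in the window and is not a measured binding site.

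The pair Vpreb1 (chr16:16868403-16870843) and Vpreb2 (chr16:17980428-17981273) is shown because the 2 genes encode nearly the same surrogate light chain part and because Vpreb2 had the most significant strain difference described below. The last 160 coding bases of each (267 to 426, GENCODE M21 transcripts), which hold 6 of the 9 differing bases, are given with those bases in capitals.
Vpreb1: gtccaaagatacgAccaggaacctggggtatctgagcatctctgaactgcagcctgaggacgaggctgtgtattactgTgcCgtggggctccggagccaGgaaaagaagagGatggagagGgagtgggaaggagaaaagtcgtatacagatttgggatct
Vpreb2: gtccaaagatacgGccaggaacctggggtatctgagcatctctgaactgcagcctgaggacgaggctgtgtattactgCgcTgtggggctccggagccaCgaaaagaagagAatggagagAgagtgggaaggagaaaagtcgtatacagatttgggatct
The pair differed at 9 of 426 coding bases, an identity of 97.9%, and the longest identical run was 196 bases. Of all stretches of 50 bases in the Vpreb2 transcript, 32.8% also occur in that of Vpreb1. How reads were divided between them is therefore uncertain, and values of either gene are reported with that limit.

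The members spanned a wide range of levels. Per kilobase of exon (GENCODE M21), the control median was highest for Cd24a, a surface protein of B progenitors, red cells and granulocytes, at 455 CPM per kb, followed by the IgM heavy chain Ighm at 438. The tetraspanin Cd37 (33.9) and the B cell receptor signalling chains Cd79a (33.0) and Cd79b (28.3) came next. The lowest were the recombinase genes Rag1 (1.49) and Rag2 (0.944), Vpreb2 (1.17) and the complement receptor Cr2 (0.549). Rag1, Vpreb1 and Vpreb2 were the members at 0 in some library, and these were immobilized limbs.

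**Figure D1:**
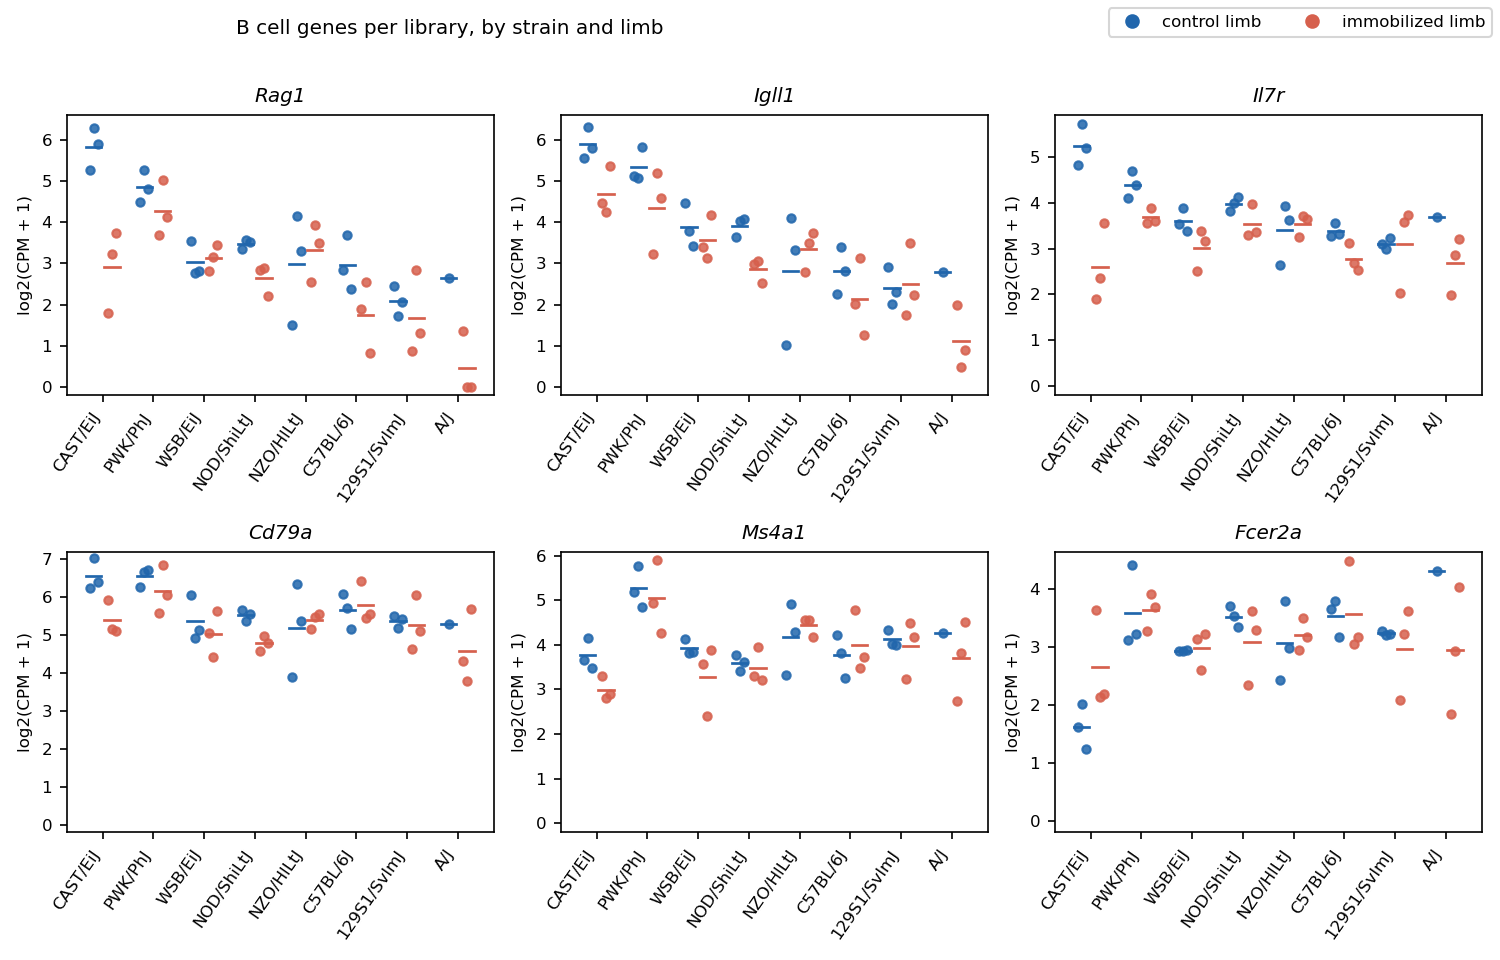
Level of 6 members in every library, as log2(CPM + 1), by strain, with control and immobilized limbs side by side; points are libraries and short lines their means, and A/J has 1 control library. Rag1, Igll1 and Il7r are highest in CAST/EiJ control limbs and lower in the CAST/EiJ immobilized limbs, while Fcer2a is lowest in CAST/EiJ control limbs.

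The comparison of control limbs between strains asks how B lineage gene expression varies with genetic background when no cast is worn. Of the 32 members, 21 differed among the 8 strains at a false discovery rate (FDR) of 0.05 in edgeR's quasi-likelihood F test (22 libraries), where 40.6% of 16493 genes did. These were 8 of 8 progenitor genes, 7 of 12 pan-B genes, 3 of 4 mature genes and 3 of 8 shared genes. Ighm (FDR 0.0514), Ighd (0.0771), Cd79a (0.0791) and Cd24a (0.888) were among those not called.

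CAST/EiJ had the highest mean of each progenitor gene but Vpreb1, which was highest in PWK/PhJ. Rag1, which makes the DNA cut of antibody gene recombination (chr2:101638282-101649501), stood at 37.9, 77.5 and 58.4 CPM in its 3 control limbs. In all control libraries Rag1 ran from 1.82 to 77.5 CPM with a median of 9.84, and the strain means differed up to 17.4-fold. The 3 CAST/EiJ limbs were the highest of all, though only just above the highest PWK/PhJ limb at 37.8 CPM. Against the mean of the other 7 strains the log2 difference was 2.80 ± 0.34 (SE, FDR 1.5e-05).

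In this contrast 17 members were higher in CAST/EiJ, where 13.1% of genes were, and 4 were lower, where 9.57% were. The median over the members was 0.87 on the log2 scale, against -0.02 over all genes tested. All 8 progenitor genes were higher, with a list median of 2.06. Ly6d, which also marks B-committed lymphoid progenitors but was read in the shared list, was lower (-4.64). Of the 8, Vpreb2 had the largest difference, 4.44 ± 0.42 (FDR 5.21e-07), at 8.68, 19.5 and 14.2 CPM. Outside CAST/EiJ and PWK/PhJ no control library exceeded 1.42 CPM of Vpreb2. Igll1, the lambda 5 part of the surrogate light chain, was at 46.2, 78.4 and 54.7 CPM, a difference of 2.53 ± 0.37 (FDR 0.000108). Rag2, the partner of Rag1, differed by 2.10 ± 0.35 (FDR 0.000353), and Vpreb3, a chaperone-like protein of pre-B cells, by 2.01 ± 0.41 (FDR 0.00193). Dntt differed by 1.85 ± 0.48 (FDR 0.0115) and Vpreb1 by 1.58 ± 0.47 (FDR 0.023). Il7r, the alpha chain of the interleukin 7 receptor, was at 27.4, 52.0 and 35.5 CPM, a difference of 1.71 ± 0.20 (FDR 9.91e-06).

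Of the 12 pan-B genes, 6 were higher in CAST/EiJ control limbs and 1 was lower. Pax5, the commitment factor, was at 64.2, 107 and 61.1 CPM against a median of 23.7 over all control libraries, with a log2 difference of 1.79 ± 0.28 (FDR 0.000208). The Fc receptor-like gene Fcrla (1.98 ± 0.30, FDR 0.00014) and the adaptor of pre-B receptor signalling Blnk (1.47 ± 0.21, FDR 5.77e-05) were also higher. The inhibitory receptor Cd22 was the lower one, at -0.80 ± 0.26 (FDR 0.0371). Among shared genes, Bach2, a repressor that holds back plasma cell fate, was at 47.2, 74.1 and 52.6 CPM and higher by 1.93 ± 0.22 (FDR 6.48e-06), and the Ets factor Spib by 1.35 ± 0.27 (FDR 0.00187).

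The mature list did not share this direction. Its median was -1.07, and 2 of its 4 genes were lower in CAST/EiJ. Fcer2a, the low-affinity IgE receptor CD23 of mature follicular B cells, was at 2.08, 3.03 and 1.35 CPM, below every other control library, with a log2 difference of -2.25 ± 0.37 (FDR 0.000313). Cr2, the complement receptor CD21 of mature B cells, differed by -1.70 ± 0.42 (FDR 0.00805). The largest deficit was that of Ly6d, a surface protein that marks B-committed lymphoid progenitors, at 0.232, 0.459 and 0.422 CPM, or -4.64 ± 0.63 (FDR 4.54e-05). Il7, the ligand of Il7r, was also lower (-1.10 ± 0.28, FDR 0.00965), with 2.2, 3.12 and 1.77 CPM. Markers of other cells in the same limbs had a median difference of 0.49 for 10 pan-leukocyte genes (0 called) and -1.04 for 12 T and NK cell genes (4 lower, 1 higher). For 10 osteoblast genes it was -1.18 (1 lower), with a list level of 8.13 log2 CPM against 8.42 to 11.22 in the other strains, and for 6 plasmacytoid dendritic cell genes -0.96 (2 lower), with 2.23 against 2.75 to 4.27. Their part in the B cell result was not tested. Scaling libraries to the pan-leukocyte genes moved the median of all genes to -0.65 and called 13 members, where 6.6% of genes were called. Of the 13, 10 were higher and 3 lower. Blnk, Spib, Cd22 and Vpreb1 were among those not called (FDR 0.0889, 0.117, 0.0587 and 0.102). The calls of Cd22, Cd79a and Vpreb1 were each lost in 3 of the 22 fits that left out a library, those of Cr2, Dntt and Tcf3 in 2.

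**Figure D2:**
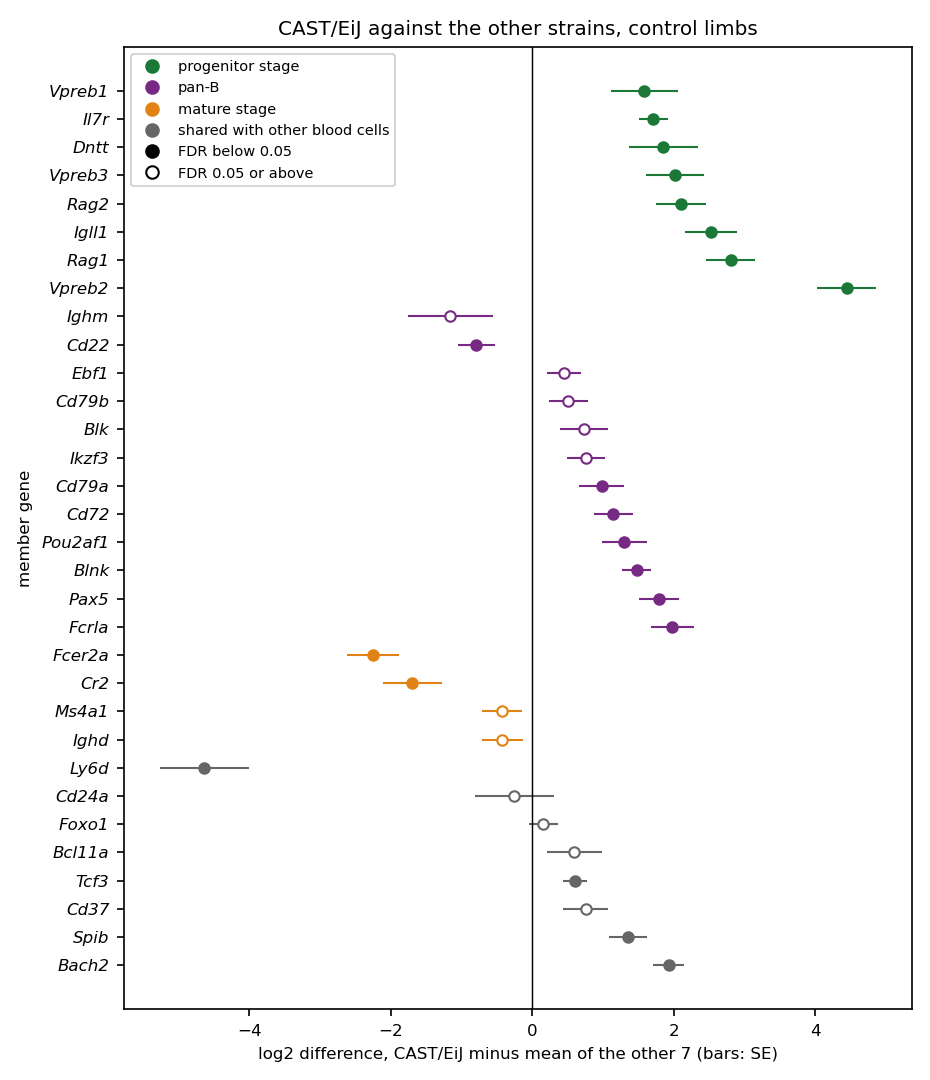
Log2 difference of each member between CAST/EiJ control limbs and the mean of the other 7 strains, with bars for the SE; filled points passed an FDR of 0.05 and colours mark the 4 lists. All 8 progenitor genes lie to the right of 0, while Fcer2a, Cr2, Cd22 and Ly6d lie to the left.

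PWK/PhJ, the other strain with high progenitor genes, had 13 members higher (10.1% of genes) and 0 lower (6.55%), with a member median of 0.77. Vpreb2 differed by 2.70 ± 0.44 (FDR 0.000331), Igll1 by 1.86 ± 0.39 (FDR 0.00274) and Rag1 by 1.63 ± 0.37 (FDR 0.00477). In contrast to CAST/EiJ, the mature gene Ms4a1, encoding CD20, was among them, at 35.4, 53.7 and 27.9 CPM and a difference of 1.38 ± 0.25 (FDR 0.000773), and Cd79b was higher by 1.29 ± 0.26 (FDR 0.00223). Il7 was higher here (0.97 ± 0.24, FDR 0.00878), the opposite sign to CAST/EiJ. Without PWK/PhJ replicate 4 or 6, 7 members were called, and the share of all genes in those fits is not given here. Whether the 2 strains differ from each other was not tested.

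Other strains departed in few members. Ly6d was higher in C57BL/6J (2.02 ± 0.36, FDR 0.00166), the sole member called there where 5.83% of genes were higher, and in 129S1/SvImJ (1.54 ± 0.37, FDR 0.0194; 5.04% of genes higher). The C57BL/6J limbs held 28.7, 24.7 and 13.6 CPM of Ly6d. For both strains the mean of the other 7 includes CAST/EiJ, with a mean of 0.371 CPM of Ly6d, which enlarges these differences. Contrasts without CAST/EiJ were not run. The pan-leukocyte list level of C57BL/6J, 8.97 log2 CPM, was the highest of the strain means. With pan-leukocyte scaling, which moved the median of all genes to -0.96 there, the Ly6d call in C57BL/6J was lost (1.24, FDR 0.0676) and Il7r and Igll1 were called lower, where 1.67% of genes were called. In 129S1/SvImJ, Rag1 (-1.88 ± 0.50, FDR 0.0324) and Il7r (-0.94 ± 0.26, FDR 0.0367) were lower, where 1.45% of genes were. Its Rag1 values were 4.47, 2.31 and 3.19 CPM. Here too the other 7 strains include CAST/EiJ, with means of 57.9 CPM of Rag1 and 38.3 CPM of Il7r. The pan-leukocyte list level of 129S1/SvImJ, 7.79 log2 CPM, was the lowest of the strain means in control limbs. Scaling to those genes moved the median of all genes to 0.67 and that of the members to 0.16. Cr2 and Ly6d were then higher and 0 members lower, where 8.88% of genes were called. Rag1 was at -1.25 (FDR 0.0674) and Il7r at -0.28 (FDR 0.508). The calls of Rag1 and Il7r were lost without any 1 of its 3 libraries. These 3 calls of 129S1/SvImJ became 0 without its replicate 2, 1 without its replicate 3 or 6, 7 without A/J replicate 1 and 11 without NZO/HlLtJ replicate 4. The share of all genes called in those fits is not given here, so the counts have no background to be read against.

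NZO/HlLtJ had 1 member called, Ighm at 1.92 ± 0.48 (FDR 0.0265; 3.63% of genes higher). Its 3 control limbs held 268, 5081 and 5313 CPM, the first being the library that stood apart, and the CAST/EiJ limbs 495, 688 and 506 CPM. The call held without that library and was lost without NZO/HlLtJ replicate 5 or 6. Ighm RNA comes from B cells of most stages and from plasma cells secreting IgM. A/J, whose contrast has less power, had 1 control library, while NOD/ShiLtJ and WSB/EiJ had 3 each. In A/J, NOD/ShiLtJ and WSB/EiJ edgeR called 0 members, where 1.69%, 10.8% and 6.54% of genes were called. At an unadjusted p under 0.05 there were 2, 1 and 3, with no share of all genes at that level to set them against. DESeq2 also called 0.

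The comparison of limbs asks what casting changed, averaged over the 8 strains. B cell development genes were lower in the immobilized limb: 13 of 32 members fell and 0 rose in the paired edgeR test over 22 mice, where 2.86% of 16882 genes fell and 4.58% rose. The log2 change was below 0 for 31 of 32 members, with a median of -0.51 against 0.01 for all genes. By list, 2 of 8 progenitor genes fell (median -0.68), 8 of 12 pan-B genes (-0.54), 1 of 4 mature genes (-0.44) and 2 of 8 shared genes (-0.15). Scaling to pan-leukocyte genes moved the median of all genes to -0.13 and that of the members to -0.64. It called 10 members, where 0.267% of genes were called, and all 32 were below 0.

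Among transcription factors, Spib fell by 0.88 ± 0.14 (FDR 0.00305). It was lower in 20 of 22 mice, with changes per mouse from -3.09 to 1.41 and a median of -0.82. Bach2 fell by 0.74 ± 0.12 (FDR 0.00305), in 17 of 22 mice, from -2.95 to 0.61. Pou2af1, the octamer coactivator, fell by 0.75 ± 0.16 (FDR 0.0112) in 19 mice, and Pax5 by 0.69 ± 0.17 (FDR 0.0215) in 17. Ikzf3, encoding Aiolos, fell by 0.70 ± 0.16 (FDR 0.0159) and Ebf1, the early B cell factor, by 0.39 ± 0.08 (FDR 0.0129). Foxo1 (-0.22 ± 0.07, FDR 0.0647) and Tcf3 (-0.10) did not pass the test.

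In the progenitor list, Rag1 fell by 0.98 ± 0.20 (FDR 0.0106), with changes per mouse from -3.82 to 1.32, a median of -0.81, and lower values in 17 of 22 mice. Il7r fell by 0.90 ± 0.15 (FDR 0.00305) in 18 mice, from -3.58 to 0.68. The groups overlapped: control limbs held 5.22 to 52.0 CPM of Il7r and immobilized limbs 2.73 to 14.6. Rag2 (-0.75 ± 0.24, FDR 0.061), Vpreb3 (-0.78 ± 0.26, FDR 0.077) and Igll1 (-0.61 ± 0.25, FDR 0.138) missed the threshold.

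Other pan-B genes that fell were Blnk (-0.39 ± 0.10, FDR 0.0215), Cd72, an inhibitory co-receptor (-0.62 ± 0.15, FDR 0.0237), Cd22 (-0.51 ± 0.15, FDR 0.0431) and Fcrla (-0.80 ± 0.16, FDR 0.00992). The receptor chains Cd79a (-0.43) and Ighm (-0.57) were not called. Of the mature genes, Ighd, the IgD heavy chain, fell by 0.49 ± 0.14 (FDR 0.0383), with lower values in 14 of 22 mice, while Ms4a1 (-0.40), Cr2 (-0.51) and Fcer2a (-0.25, lower in 8 of 22 mice) were not called.

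Of these calls, 3 rested on the A/J pair. Without it, Ighd was at -0.17 (FDR 0.383), Cd22 at -0.22 (FDR 0.279) and Ebf1 at -0.19 (FDR 0.104), and 0 of 4 mature genes were called, where 17.6% of all genes were. The call of Cd22 was lost in 16 and that of Ighd in 10 of the 22 fits that left out a mouse. Without NZO/HlLtJ mouse 4, 21 members fell, where 11.3% of all genes were called in either direction. The 21 held 12 of 12 pan-B genes and 4 of 8 progenitor genes. Without both mice 19 fell, where 24.1% of genes were called in either direction. The 19 held 6 of 8 progenitor genes and 0 of 4 mature genes, and 10 of them were shared with the 13.

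**Figure D3:**
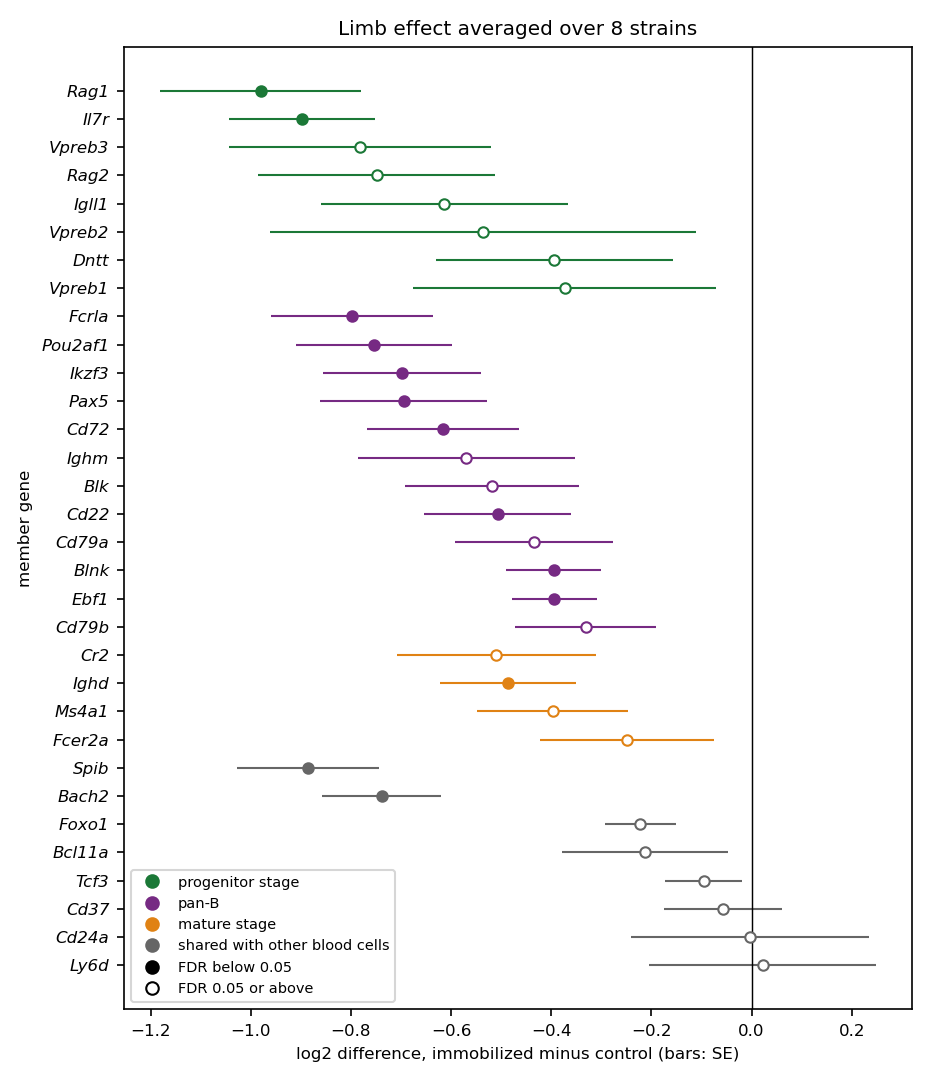
Log2 change of each member (immobilized minus control limb, mean of the 8 strain effects over 22 mice) with bars for the SE; filled points passed an FDR of 0.05 and colours mark the 4 lists. Nearly all points lie left of 0, with Rag1 and Il7r at -0.98 and -0.90, and Cd24a and Ly6d close to 0.

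Within strains, CAST/EiJ had the most members called. There 13 fell, where 5.47% of genes fell and 8.38% rose, and the member median was -1.12 against -0.01 for all genes. These contrasts use the same CAST/EiJ control limbs as the comparison between strains above, so the values of both are given side by side and their likeness is not a separate result. Rag1 went from 37.9, 77.5 and 58.4 CPM in control to 2.46, 8.39 and 12.4 in immobilized limbs, a change of -3.06 ± 0.47 (FDR 0.000708) beside the strain difference of 2.80. Every immobilized value lay below every control value.

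Il7r went from 27.4, 52.0 and 35.5 to 2.73, 4.12 and 10.7 CPM (-2.85 ± 0.37, FDR 0.000299), beside a strain difference of 1.71. Spib went from 69.0, 89.2 and 66.8 to 14.0, 10.2 and 12.4 CPM (-2.61 ± 0.36, FDR 0.000436). Bach2 went from 47.2, 74.1 and 52.6 to 9.55, 9.38 and 10.4 CPM (-2.54 ± 0.30, FDR 0.000112). None of these 3 genes had overlapping limbs. Rag2 fell by 2.25 ± 0.53 (FDR 0.0104), Fcrla by 2.14 ± 0.39 (FDR 0.00221), Ikzf3 by 1.94 ± 0.40 (FDR 0.00444) and Pax5 by 1.65 ± 0.40 (FDR 0.0118). Vpreb3 (FDR 0.0381), Pou2af1, Cd72, Blnk and Blk, a Src family kinase of B cells, complete the 13.

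By list, the CAST/EiJ medians were -1.79 for the progenitor genes (4 of 8 called), -1.37 for pan-B genes (7 of 12), -0.60 for shared genes (2 of 8) and 0.01 for mature genes (0 of 4). Igll1 was at 46.2, 78.4 and 54.7 CPM in control and 18.1 to 40.1 in immobilized limbs, without overlap but not called. Fcer2a pointed the other way: 2.08, 3.03 and 1.35 CPM in control and 11.5, 3.41 and 3.58 in immobilized limbs, or 1.35 ± 0.47 (FDR 0.064). In CAST/EiJ all immobilized limbs lay below all control limbs in 26 of 32 members, where this held for 17.2% of genes, and above in 1, Fcer2a, where it held for 18.2%.

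In the same CAST/EiJ limbs 8 of 10 osteoblast genes rose (median 2.71), their list level going from 8.13 to 10.69 on the log2 CPM scale. The 10 pan-leukocyte genes had a median of -0.42 (10 of 10 below 0, 0 called) and went from 8.71 to 8.28, and the 12 neutrophil genes had a median of -0.52. Their part in the B cell result was not tested. Scaling to the pan-leukocyte genes moved the median of all genes to 0.41 and that of the members to -0.68. It called 6 members, where 2.45% of genes were called. Without CAST/EiJ replicate 3 the number was also 6, with no share of all genes given here to set beside it. In the strain's own 6 libraries the number was 24, of which 23 were lower and 1 higher, where 23.9% of genes were called.

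In the A/J pair 4 members fell, where 1.28% of genes did, with no replicate of its own. These were Ebf1 (-1.80 ± 0.39, FDR 0.026), Ighd (-2.69 ± 0.64, FDR 0.0326), Foxo1 (-1.31 ± 0.32, FDR 0.0357) and Cd22 (-2.49 ± 0.68, FDR 0.0492). The mature list had a median of -2.76 and the progenitor list -0.78. The immobilized limb of this pair held 8.52 CPM of Ighd against 55.1 in the control limb, while the other A/J immobilized limbs, without usable partners, held 31.8 and 85.1. That library also had the lowest pan-B and mature list levels of all immobilized limbs. The mean log2 CPM of progenitor minus mature genes was -2.27 in the control limb and -0.70 in the immobilized limb of the pair. It was -3.99 and -4.15 in the other A/J immobilized limbs, which both held 0 CPM of Rag1. In the same pair the median change was 2.37 for 12 neutrophil genes (12 above 0, 0 called) and 1.33 for 10 pan-leukocyte genes (10 above 0, 1 called). It was -5.22 for 12 skeletal muscle genes and -2.14 for 10 osteoblast genes (0 called in either) and -1.42 for 12 T and NK cell genes (1 called). Their part in the change of the B cell genes was not tested.

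In the other 6 strains edgeR called 0 members. At an unadjusted p under 0.05 there were 4 in NOD/ShiLtJ, 6 in PWK/PhJ, 5 in WSB/EiJ, 3 in C57BL/6J and 0 each in 129S1/SvImJ and NZO/HlLtJ. The share of all genes under that level was not computed, so these counts have no background to be read against. DESeq2 called 3 in NOD/ShiLtJ and 0 in the rest. Changes were below 0 for 31 of 32 members in NOD/ShiLtJ (median -0.58; 8.33% of all genes called), 30 in PWK/PhJ (-0.49; 0.0889%), 25 in WSB/EiJ (-0.35; 0.00592%), 23 in C57BL/6J (-0.15; 0.00592%) and 20 in 129S1/SvImJ (-0.10; 0%). All 8 progenitor genes were below 0 in C57BL/6J (median -0.79), NOD/ShiLtJ (-0.96) and PWK/PhJ (-0.68).

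In NOD/ShiLtJ the limbs did not overlap for 13 members, each lower in the immobilized limb, where 14.9% of genes did so. Rag1 was at 9.2, 10.9 and 10.5 CPM in control and 6.12, 6.46 and 3.62 in immobilized limbs, and Spib at 33.2, 23.7 and 33.5 against 13.2, 14.3 and 13.7. In the same limbs 7 of 10 osteoblast genes rose (median 1.92), their list level going from 9.70 to 11.55 log2 CPM, and that of skeletal muscle went from 11.03 to 7.95 (1 of 12 genes called). The neutrophil, erythroid and pan-leukocyte lists had medians of -0.68, -0.74 and -0.40 with 0 called. Their part in the B cell values was not tested. The numbers without overlap were 4 in PWK/PhJ (Rag2, Il7r, Fcrla and Cd37; 6.11% of genes), 3 in C57BL/6J (Il7r, Vpreb2 and Cd37; 6.37%), 1 in 129S1/SvImJ (Cd72; 3.21%), 1 in WSB/EiJ (Ikzf3; 4.27%) and 0 in NZO/HlLtJ (2.7%). The counts of 129S1/SvImJ, WSB/EiJ and NZO/HlLtJ were at or below the background.

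NZO/HlLtJ differed in sign, with 5 of 32 members below 0 and a median of 0.18 (0.00592% of all genes called). Without mouse 4, whose control limb stood apart, 31 members were below 0 and the median was -0.29. With that mouse, the erythroid and neutrophil lists were also higher in the immobilized limbs of NZO/HlLtJ, by means of 1.77 and 0.84 on the log2 scale.

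**Figure D4:**
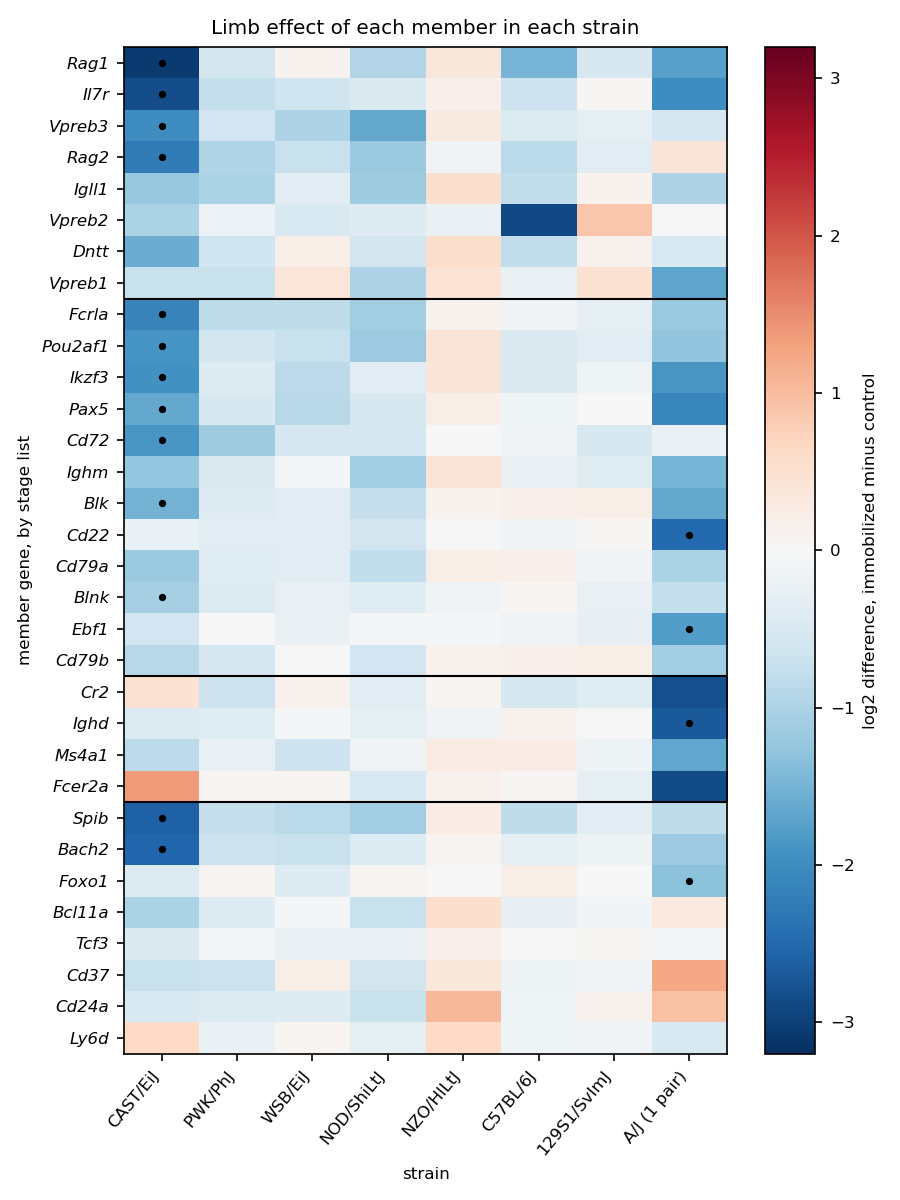
Heat map of the log2 change (immobilized minus control limb) of the 32 members in each strain; dots mark an FDR below 0.05 and lines separate the 4 lists. The CAST/EiJ column holds 13 of the dots and the A/J column, from 1 pair, 4, while the NZO/HlLtJ column has mostly positive changes.

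Whether limb effects differ between strains was tested directly by an F test over the 8 effects, which called 2.5% of genes (422). Of the members, 2 passed: Bach2 (FDR 0.029) and Il7r (FDR 0.0365). Rag1 (FDR 0.0615) and Spib (FDR 0.0653) did not. Bach2 ranged from 47.2, 74.1 and 52.6 CPM in control against 9.55, 9.38 and 10.4 in immobilized limbs of CAST/EiJ to 10.2, 21.9 and 17.3 against 13.7, 19.7 and 17.0 in NZO/HlLtJ. Il7r in NZO/HlLtJ was at 5.22, 14.2 and 11.4 against 8.5, 12.1 and 11.6 CPM. Without CAST/EiJ replicate 3 the FDR was 0.120 for Bach2 and 0.133 for Il7r, and 0 members were called without A/J replicate 1, CAST/EiJ replicate 2, NZO/HlLtJ replicate 6 or WSB/EiJ replicate 4 as well, or with pan-leukocyte scaling. DESeq2 called 10.

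In the immobilized limbs themselves, 17 of 32 members differed among strains (24 libraries), a share close to the 50.3% of 15478 genes called. Among these members were 6 of 8 progenitor genes and 1 of 4 mature genes. Vpreb2 (FDR 3.92e-06), Ly6d (FDR 6.15e-05), Blnk (FDR 0.000152), Dntt (FDR 0.000203), Ighm (FDR 0.000322) and Igll1 (FDR 0.000774) led. Vpreb2 was at 6.55, 6.54 and 7.01 CPM in CAST/EiJ and at 1.75, 11.4 and 3.4 in PWK/PhJ. Il7r (FDR 0.241), Pax5 (FDR 0.271), Bach2 (FDR 0.339) and Fcer2a (FDR 0.701), which were called in CAST/EiJ control limbs, were not called among immobilized limbs. That the 2 limbs differ in this respect was tested only by the test among the 8 limb effects above.

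The balance between stages was followed as the mean log2 CPM of the 8 progenitor genes minus that of the 4 mature genes in each library (prior count of 2). Ly6d, read in the shared list and lower in CAST/EiJ control limbs, has no part in it. In control limbs this balance was highest in CAST/EiJ, at 2.32 ± 0.34 (SD, n = 3), followed by PWK/PhJ at -0.04 ± 0.61 and WSB/EiJ at -0.43 ± 0.53. It was lowest in 129S1/SvImJ, at -2.18 ± 0.50, and in the single A/J library, at -2.27. The CAST/EiJ limbs, from 2.06 to 2.71, lay above every other control limb, while neighbouring strains below them overlapped. In immobilized limbs the CAST/EiJ value was 0.39 ± 0.97, from -0.59 to 1.35, below all its control limbs.

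As a measure of stage that is taken within each mouse, the limb changes of Rag1 and Ighd were compared, and likewise those of Igll1 and Ms4a1. The change of Rag1 minus that of Ighd was -0.62 ± 0.28 (SE, 22 mice), below 0 in 13 of 22 mice, with p = 0.0373 in a 2-sided sign-flip permutation test and 0.0746 adjusted over the 2 pairs. The change of Igll1 minus that of Ms4a1 was -0.28 ± 0.20, below 0 in 14 of 22 mice (permutation p = 0.170, adjusted 0.170). Neither passed the threshold, and the first did in 3 of the 22 fits that left out a mouse. These were without A/J replicate 1 (-0.70), 129S1/SvImJ replicate 3 (-0.70) or NZO/HlLtJ replicate 4 (-0.69). The difference shrank without CAST/EiJ replicate 2, 3 or 4, to -0.46, -0.57 and -0.55 (adjusted permutation p 0.15, 0.13 and 0.13). Without C57BL/6J replicate 6 it was -0.51 (adjusted permutation p 0.14).

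**Figure D5:**
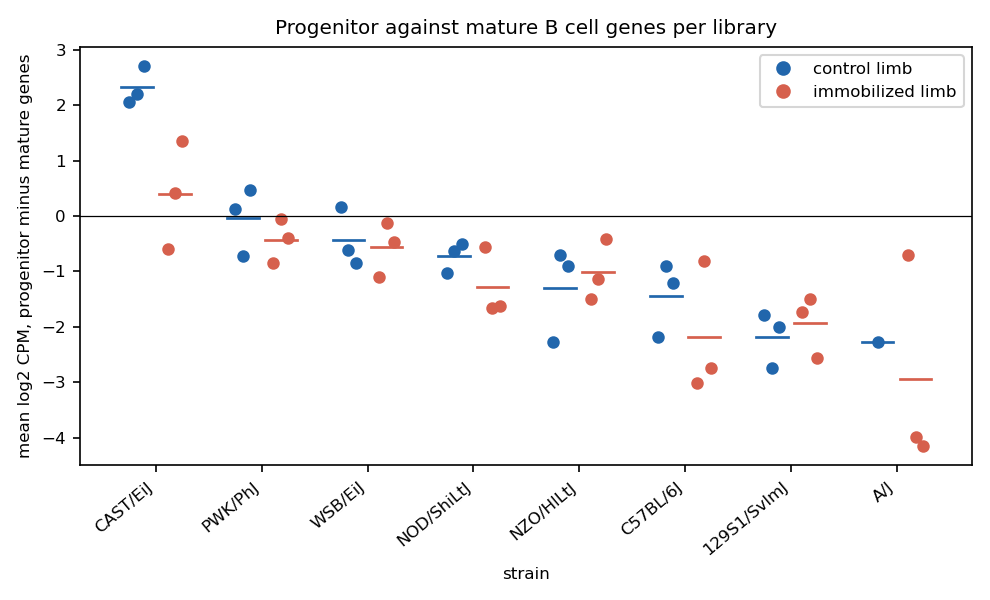
Mean log2 CPM of the 8 progenitor genes minus that of the 4 mature genes, by strain and limb; points are libraries and lines their means. The CAST/EiJ control limbs, from 2.06 to 2.71, sit above all other control limbs, and the CAST/EiJ immobilized limbs sit below them.

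Genes that act with the members were read from further lists. Over all strains, 2 of 14 genes of interleukin 7 signalling and the lymphoid niche fell in the immobilized limb (2.86% of all genes), the lymphoid growth factor Flt3l (-0.32 ± 0.08, FDR 0.0266) and the shared cytokine receptor chain Il2rg (-0.22 ± 0.06, FDR 0.0324). Il7 itself was at -0.12 ± 0.17 (FDR 0.762). Of 14 other lymphoid transcription factors 1 fell, Irf4, which acts in pre-B and plasma cells, by 0.73 ± 0.13 (FDR 0.00569). Of 8 genes that rejoin the breaks made by the recombinase 1 fell, the Ku70 gene Xrcc6 by 0.28 ± 0.07 (FDR 0.0276). Of 10 plasma cell genes 2 rose, Fkbp11 (1.04 ± 0.14, FDR 0.000884) and Sdc1 (0.53 ± 0.14, FDR 0.0301), a secretory pathway chaperone and a surface proteoglycan that other cells also express. In the same test 0 of 12 cell cycle genes passed.

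In the CAST/EiJ limbs 5.47% of genes fell and 8.38% rose. There a list of 14 genes of B lineage surface and receptor signalling went from 5.65 to 5.03 log2 CPM, and the pan-leukocyte list from 8.71 to 8.28. Genes of the first list that fell included the adaptor Pik3ap1 (-0.94, FDR 0.00544), the phospholipase Plcg2 (-1.02, FDR 0.0168) and the kinases Syk (-0.73, FDR 0.0307) and Btk (-0.81, FDR 0.0486). Whether these changes belong to B cells alone was not tested. Of 14 other lymphoid transcription factors 3 fell and 1 rose. Irf4 fell by 2.19 ± 0.33 (FDR 0.0006), Foxp1 by 0.64 ± 0.13 (FDR 0.00349) and Erg by 0.64 ± 0.14 (FDR 0.00797), while Id3, an inhibitor of E proteins such as E2A, rose by 1.63 ± 0.31 (FDR 0.003). Of 8 end joining genes 2 fell, Xrcc6 by 1.27 ± 0.19 (FDR 0.000525) and the ligase Lig4 by 1.16 ± 0.26 (FDR 0.00763). Of 10 plasma cell genes 2 rose, Fkbp11 (2.22 ± 0.35, FDR 0.000875) and Sdc1 (1.40 ± 0.35, FDR 0.0146), and 0 fell. Of 12 cell cycle genes 0 passed, all below 0 (median -0.66). Of the interleukin 7 and niche list 0 of 14 passed, with Il7 at 0.56 ± 0.43 (FDR 0.411).

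Markers of other cells in the mean limb effect were lower for 10 of 12 skeletal muscle genes (median -2.11) and higher for 7 of 10 osteoblast genes (median 0.73). Of 6 plasmacytoid dendritic cell genes 1 was lower, Cox6a2 (-1.69, FDR 0.0244), a cytochrome c oxidase subunit also found in striated muscle, and the list median was -0.20. Of T and NK cell genes 0 of 12 passed (11 below 0, median -0.31), and 0 passed of 12 neutrophil (0.14), 11 erythroid (-0.14), 10 macrophage (0.03) and 10 pan-leukocyte genes (0.13). Their part in the change of the B cell genes was not tested beyond the pan-leukocyte scaling given above.

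Over the 46 libraries, the members tracked either stage to unequal degree, as a description in which strains and limbs are pooled and depth is shared. With the mean of Rag1, Rag2, Dntt, Vpreb1 and Igll1, Pearson's r was 0.88 for Blnk, 0.80 for Tcf3, 0.76 for Spib, 0.71 for Pax5 and 0.69 for Il7r, and 0.10 for Cd22. With the mean of Ighd, Fcer2a, Cr2 and Ms4a1 it was 0.93 for Cd22, 0.56 for Ly6d, 0.35 for Spib, 0.32 for Pax5 and 0.05 for Blnk. Outside the list, the genes most like the progenitor mean were Drc7 (r of 0.87), Fam129c (0.83), Chit1 (0.82), Bcl7a (0.80), Cbx2 (0.80), Cecr2 (0.80), Ctse (0.79) and Irf4 (0.79). Those most like the mature mean were H2-Ob (0.88), P2ry10 (0.83), Cacna1i (0.83), Ccr7 (0.82), Ccr6 (0.82), Cxcr5 (0.81), Fcmr (0.81) and Bank1 (0.80). Within the 16 groups of strain and limb the correlations were lower for some of these, at 0.23 for Cbx2 and 0.35 for Bcl7a, and from 0.64 (Irf4) to 0.79 (Drc7) for the other 6 of the progenitor side. Those of the mature side lay between 0.75 (Ccr6) and 0.95 (H2-Ob).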

How the data were processed

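RNA was measured in 48 libraries, and the table the authors deposited holds unnormalized read counts, 1 column per library. Libraries were stranded and selected for poly(A) RNA, per the labels' protocols. featureCounts, DESeq2 and mm10 are named per the submitters' processing notes. Which aligner, annotation and strand setting were used is not given in the sources used here, so overlapping and antisense genes may share reads. The table has 2 repeated names, 27 names turned into dates and 7355 gene rows with no count.

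Tests of the counts used edgeR 4.0.16 under R 4.3.3 (filterByExpr, TMM, robust quasi-likelihood F test, Benjamini-Hochberg FDR of 0.05 over all genes tested). The limb model, on 44 libraries of 22 mice, held the mouse as a block and 1 limb coefficient for each strain. Limbs were paired by mouse, as the series design states. As a check, deviations from group means correlated between limbs with a median r of 0.09 over 21 mice (-0.26 to 0.55). Strains were compared within control or immobilized limbs. The 2 near-empty libraries were left out, in the limb model with their partner limbs. Replicates are separate mice.

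Alternatives were DESeq2 1.42.0, RLE scaling, no filter, scaling to 10 pan-leukocyte genes, no replicate block, all libraries, a strain's own libraries and leaving out each mouse or library. Leaving out A/J mouse 1 with NZO/HlLtJ mouse 4 was added after seeing the data. Scripts were tested on simulated data. Gene positions and exon lengths are from GENCODE M21, promoters from RefSeq on GRCm38.p6. Members could all be named, with full statistics for those past the FDR, up to 12 by smallest FDR. Other genes were named where past the FDR, up to 4 a list, besides Il7, and as the 8 genes most like each stage mean. The members, lists and tests were chosen with earlier results of these data known.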

Additional observations from a re-analysis of the deposited data

Results flagged for a closer look

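For 2 members the limb effect differed between strains by the F test over the 8 strain effects (edgeR). For Bach2 the FDR was 0.029, and the change was -2.54 ± 0.30 in CAST/EiJ. For Il7r the FDR was 0.0365, and the change was -2.85 ± 0.37 in CAST/EiJ. Both calls were lost without CAST/EiJ replicate 3 (FDR 0.120 and 0.133). Groups of 3 libraries were too small for the search for single outlying samples.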

How the results depend on the processing

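The number of members called kept within 1.5 times its value in most fits, where 0 in both fits counts as kept. Most of these fits left out 1 mouse or library. Other changes of processing moved the number in several comparisons, given below. The limb median of NZO/HlLtJ changed sign without its mouse 4, and in C57BL/6J and 129S1/SvImJ pan-leukocyte scaling called other members, as given above. DESeq2 called 6 members in 129S1/SvImJ against the other strains (3 in edgeR; 9.46% of all genes by DESeq2), 8 in the A/J limb effect (4; 12.7%), 3 in that of NOD/ShiLtJ (0; 12.5%) and 10 in the test among limb effects (2; 14.6%). Pan-leukocyte scaling gave 2 in C57BL/6J against the others, both lower (1, higher; 1.67% of all genes called). It gave 13 in CAST/EiJ against the others (21; 6.6%) and 6 in the limb effect of CAST/EiJ (13; 2.45%). In the A/J limb effect it gave 26, where it moved the median of all genes to -1.61 and called 36.3% of genes. In the test among limb effects it gave 0, and among immobilized limbs 26 (17), where it called 82.7% of genes. With no replicate block, that is without pairing, 0 members were called in A/J and 0 in the test among limb effects. The mean limb effect then had 11 (6.26% of all genes called), 9 of them shared with the 13. In its own 6 libraries CAST/EiJ had 24, of which 23 were lower and 1 higher (23.9% of all genes called). A/J, with 1 pair, could not be fitted alone. With NZO/HlLtJ mouse 4 and A/J mouse 1 both left out, NOD/ShiLtJ had 3 (11.2% of all genes called) and the test among limb effects 0. The cause was not tested.

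Leaving out 1 mouse or library at a time gave 11 to 21 members in the mean limb effect, 6 to 17 in the limb effect of CAST/EiJ, 3 to 5 in A/J, 0 to 3 in NOD/ShiLtJ and 0 in each other strain, and 0 to 4 in the test among strains. Between strains in control limbs it gave 16 to 27 over all, 0 to 11 in 129S1/SvImJ, 1 to 3 in C57BL/6J, 15 to 24 in CAST/EiJ, 0 to 1 in NZO/HlLtJ, 7 to 17 in PWK/PhJ, 0 to 1 in WSB/EiJ and 0 in A/J and NOD/ShiLtJ. Among immobilized limbs it gave 13 to 21. In the mean limb effect the share of all genes called also moved between such fits, as given above. For the other ranges that share is not given here, so they show how far the calls held and not a result about the members. The change of Rag1 minus that of Ighd lay between -0.70 and -0.46, and that of Igll1 minus Ms4a1 between -0.35 and -0.18. Low depth limits Vpreb2, Rag2 and Cr2, with control medians of 0.891, 3.23 and 4.45 CPM.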
